A study of Triticum aestivum with 4 samples.

Results

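Osmotins, a metallothionein and a senescence-associated transcript were followed in flag leaves of wheat through 5 of the 61115 probe sets tested, which are all the probe sets of 4 transcript clusters on the array. Of these, Ta.28611.1.S1_at, Ta.8359.1.S1_s_at, Ta.23013.3.S1_s_at and Ta.21557.1.A1_at were selected because they were lower in the transgenic line on these same arrays, so that their signals and differences are a description and not a test. Ta.8359.1.S1_at entered only because it belongs to the cluster of one of them. The cluster names come from rice and Arabidopsis matches, since 0 of the 5 probe sets has a gene in the wheat annotation used here, and the wheat genes behind them could not be checked further.

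UD-2 is a line of the wheat genotype CB037 that carries the maize transcription factor gene ZmDof1 behind the constitutive promoter UBI4. Its construct also holds the selection marker gene nptII. WT is CB037 without the construct. Both lines were grown next to each other in a greenhouse, with a 10/14 h photoperiod and 29°C by day and 24°C at night, and were sampled at anthesis. Each line had 2 arrays, each hybridized with RNA pooled from 3 plants. UD-2 is a single transgenic event, so that effects of ZmDof1, of nptII, of the transformation and of that event cannot be told apart. The ZmDof1 transcript was not analysed here.

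Osmotins are plant proteins of the thaumatin fold, grouped with pathogenesis-related family PR-5, which were first described in tobacco cells adapted to salt and which can damage fungal membranes. Metallothioneins are small cysteine-rich proteins that bind copper and zinc, and in Arabidopsis several of their transcripts are known to accumulate in ageing leaves. Senescence-associated transcripts are those that become abundant as a leaf dismantles its chloroplasts and exports nitrogen, and the family matched here is also described as dehydration-associated.

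All 5 probe sets had a lower signal on both UD-2 arrays than on either WT array, an order shown by 25.9% of all probe sets tested. In the limma fit over all probe sets, 4 of the 5 were past an adjusted p of 0.05 and lower in UD-2, beside 0.281% of all probe sets, and 0 were higher, beside 0.43%. At an unadjusted p under 0.05, 4 were lower, beside 8.56% of all probe sets, and 0 higher, beside 8.53%. Since this contrast chose the 4, nothing is read from either count. The median log2 difference, UD-2 minus WT, was −2.29 over the 5 probe sets, −1.21 over the 172 probe sets past the threshold and lower, and −0.02 over all probe sets tested. Among those 172, the decreases of the 4 chosen probe sets stood at ranks 17, 23, 25 and 58 by size. With any 1 of the 4 arrays left out, none of the 5 passed the threshold in limma, although 4 kept an unadjusted p under 0.05, and the adjusted p of the chosen 4 then lay between 0.187 and 0.438. The background level of an array was taken as the 95th percentile of its 42 Bacillus control probe sets, which have no target in wheat. A bulk sample cannot tell fewer cells of a type from less RNA per cell.

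**Figure D1:**
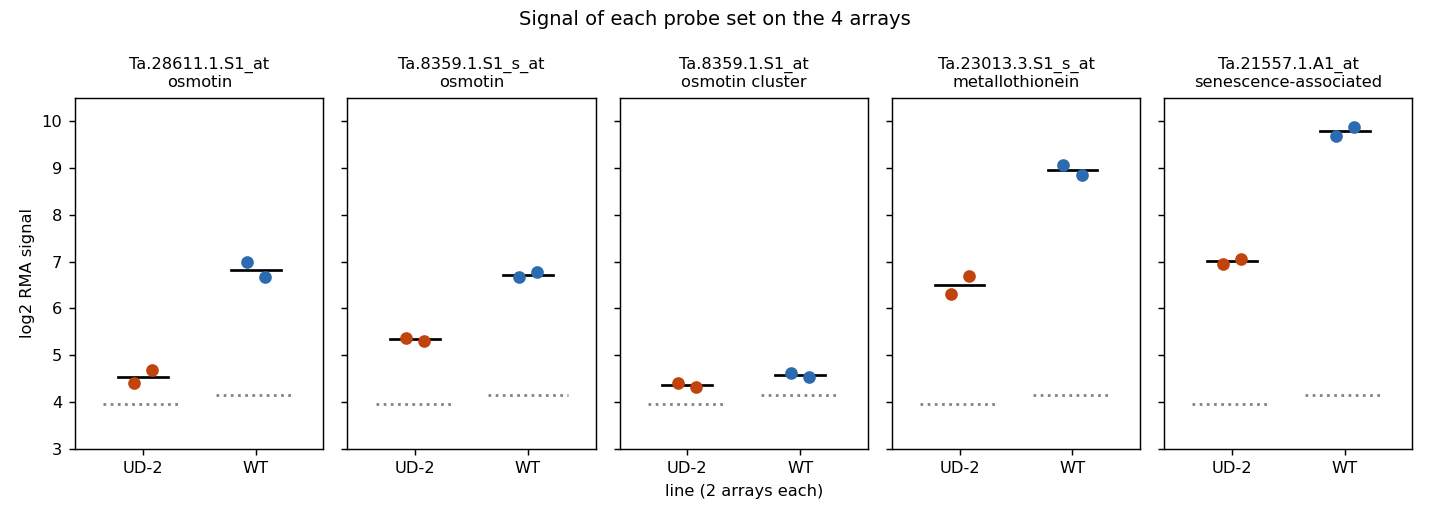
Log2 signal (robust multiarray average) of the 5 probe sets on each of the 2 UD-2 arrays (left in each panel) and the 2 WT arrays (right). Points are arrays, black bars are means, and dotted lines are the mean background level of the line; all 5 probe sets lay above background on all 4 arrays, and the lines are close together only in the Ta.8359.1.S1_at panel.

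Ta.28611.1.S1_at, whose rice match is a putative osmotin, had log2 signals of 4.41 and 4.68 on the UD-2 arrays, against 7.00 and 6.66 on the WT arrays. Its highest UD-2 array lay 1.99 below its lowest WT array, and the lowest UD-2 array was only 0.47 above the background level of that array, so that its decrease ended near the limit of detection. UD-2 averaged 4.54 ± 0.19 and WT 6.83 ± 0.24 (SD, n = 2 for each line), a log2 difference of −2.29 with a standard error of 0.17 and a 95% interval from −2.70 to −1.88. On the linear scale Ta.28611.1.S1_at was 4.89-fold lower in UD-2, with an interval from 3.67-fold to 6.51-fold (adjusted p = 0.0104 from limma). Its log2 difference ranged from −2.46 to −2.12 when single arrays were left out.

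Ta.8359.1.S1_s_at, whose rice match is a putative osmotin and whose Arabidopsis match is a putative osmotin-like protein, gave 5.37 and 5.31 on the UD-2 arrays, against 6.67 and 6.79 on the WT arrays. Replicate arrays of a line lay close together, and the gap between the lines was 1.30. UD-2 averaged 5.34 ± 0.04 and WT 6.73 ± 0.09 (SD, n = 2 for each line), so that the difference was −1.39 (standard error 0.11, 95% interval −1.67 to −1.11). It was 2.62-fold lower in UD-2, with an interval from 2.15-fold to 3.18-fold (adjusted p = 0.0148 from limma), and its log2 difference was −1.45 to −1.33 with single arrays left out.

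The other probe set of that cluster, Ta.8359.1.S1_at, did not pass the test. It measured 4.40 and 4.33 on the UD-2 arrays, against 4.62 and 4.53 on the WT arrays, which is a gap of 0.13 between the lines. Its log2 difference was −0.21, with a 95% interval from −0.49 to 0.07 (adjusted p = 0.287 from limma). That interval reaches a 1.40-fold decrease in signal, but near the limit of detection it does not bound the decrease in RNA. All 4 of its signals lay close to background, on the UD-2 arrays by as little as 0.34 on the log2 scale. The background level itself was lower in UD-2, at 3.93 and 3.99, against 4.17 and 4.15 on the WT arrays. The share of that shift in the difference of −0.21 was not tested. On this array type the ending _s_at marks a probe set whose probes match several related transcripts, while _at marks one designed for a single transcript, so that both probe sets of this cluster need not report the same RNA. Within each array the signal of Ta.8359.1.S1_s_at minus that of Ta.8359.1.S1_at was 0.96 and 0.98 on the UD-2 arrays, against 2.05 and 2.25 on the WT arrays, and the change between the lines thus differed between them by −1.18. The nearness of Ta.8359.1.S1_at to background limits this contrast too. The exact two-sided permutation test over the arrays gave p = 0.333, the smallest value that 2 arrays against 2 can give, and 0.370 after Benjamini-Hochberg adjustment over 10 pairs of probe sets.

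The chosen probe sets of both osmotin clusters were lower in UD-2, by unequal amounts. Ta.28611.1.S1_at minus Ta.8359.1.S1_s_at was −0.96 and −0.63 on the UD-2 arrays, against 0.33 and −0.12 on the WT arrays. The measured decrease of Ta.28611.1.S1_at was thus larger by 0.90 on the log2 scale, with no overlap between the lines. That is a description, since the contrast between the lines chose both probe sets, and Ta.28611.1.S1_at ended near the limit of detection in UD-2. The exact permutation p of 0.333 (0.370 adjusted over the 10 pairs) was the smallest possible. The test could thus not pass at any size of difference, and nothing is read from it.

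Ta.23013.3.S1_s_at, whose Arabidopsis match is the copper-binding metallothionein MT2B, had log2 signals of 6.32 and 6.70 on the UD-2 arrays, against 9.06 and 8.85 on the WT arrays. The highest UD-2 array was 2.15 below the lowest WT array, while the 2 UD-2 arrays differed by 0.38, more than for any other of the 5 probe sets in either line. On average UD-2 gave 6.51 ± 0.27 and WT 8.96 ± 0.15 (SD, n = 2 for each line). The log2 difference was −2.45 (standard error 0.17, 95% interval −2.87 to −2.04), a signal 5.47-fold lower in UD-2 with an interval from 4.10-fold to 7.30-fold (adjusted p = 0.00766 from limma). Leaving out single arrays gave −2.64 to −2.26. As an _s_at probe set it may report more than 1 metallothionein transcript.

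Ta.21557.1.A1_at, whose rice match is a putative senescence-associated protein, fell most of the 5. It read 6.95 and 7.06 on the UD-2 arrays, against 9.69 and 9.89 on the WT arrays, and the gap between the lines was 2.63. Averages of 7.00 ± 0.08 for UD-2 and 9.79 ± 0.14 for WT (SD, n = 2 for each line) gave a log2 difference of −2.79 (standard error 0.13, 95% interval −3.10 to −2.47). The signal was 6.89-fold lower in UD-2, with an interval from 5.55-fold to 8.56-fold (adjusted p = 0.00192 from limma), and the difference was −2.88 to −2.69 with single arrays left out.

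**Figure D2:**
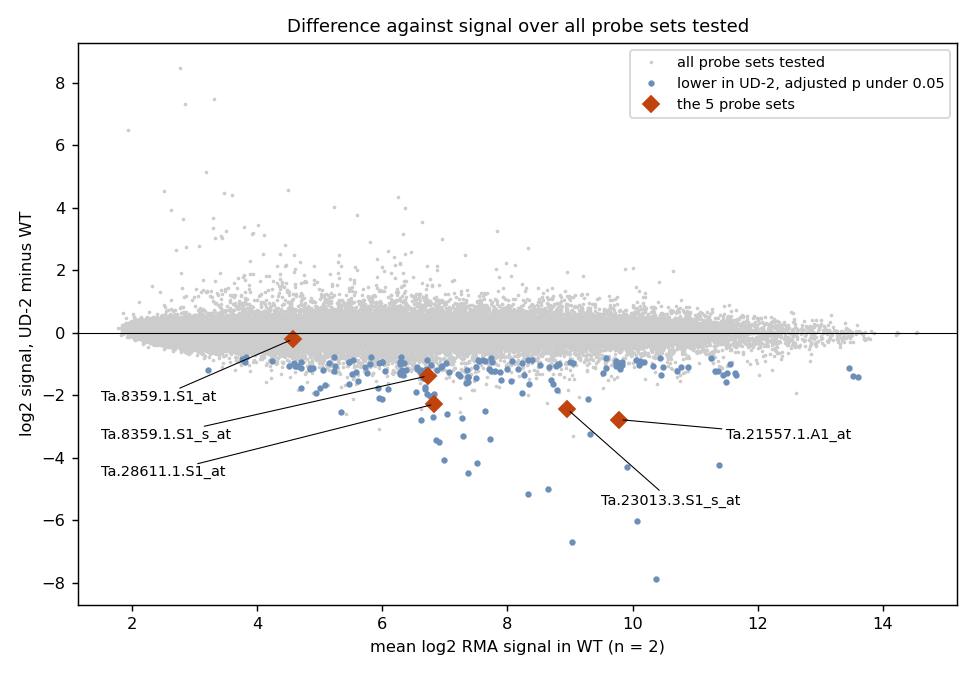
Log2 difference (UD-2 minus WT, vertical axis) against the mean WT log2 signal (horizontal axis, n = 2) for the 61115 probe sets tested. Blue points are the probe sets past the threshold and lower in UD-2, and red diamonds are the 5 probe sets; 4 diamonds lie between −2.79 and −1.39, and Ta.8359.1.S1_at lies at −0.21, inside the band of all probe sets.

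The spread between pools of the same line enters the test by which the 4 probe sets were chosen, and is given as a description. The 2 UD-2 arrays differed by 0.06 to 0.38 over the 5 probe sets and the 2 WT arrays by 0.09 to 0.34, against medians of 0.145 in UD-2 and 0.140 in WT over all probe sets tested. Ta.23013.3.S1_s_at and Ta.28611.1.S1_at varied most and varied the same way, both being higher in UD-2 replicate 2 than in UD-2 replicate 1 and higher in WT replicate 1 than in WT replicate 2. Their signals kept a nearly constant distance, with Ta.23013.3.S1_s_at minus Ta.28611.1.S1_at at 1.91 and 2.02 on the UD-2 arrays, against 2.06 and 2.19 on the WT arrays. Their decreases differed by 0.16 on the log2 scale (exact permutation p = 0.333, 0.370 adjusted over the 10 pairs). Ta.21557.1.A1_at minus Ta.23013.3.S1_s_at was 0.63 and 0.37 on the UD-2 arrays, against 0.63 and 1.04 on the WT arrays, so that the lines overlapped (exact permutation p = 0.667, also after adjustment). Nothing is read from these pairs, since the contrast between the lines chose their members.

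Probe sets with the pattern most like each chosen one were sought outside the 4 clusters. The 5 were thus not set beside each other in this search. The measure was the Euclidean distance between values centred on their own mean over the 4 arrays, which the difference between the lines dominates. Of the probe sets searched, Ta.22178.1.A1_at, described as a transferase family protein, was nearest both to Ta.23013.3.S1_s_at (distance 0.173) and to Ta.28611.1.S1_at (0.235). It had log2 signals of 5.03 and 5.22 on the UD-2 arrays, against 7.81 and 7.47 on the WT arrays. Next came Ta.608.3.S1_at, described as the RNA polymerase II subunit RPB4, for the metallothionein (0.341) and Ta.30903.1.A1_at, described as an integral membrane protein, for the osmotin (0.274). Nearest to Ta.21557.1.A1_at were Ta.4334.3.A1_a_at (0.117), which gave 4.10 and 4.12 on the UD-2 arrays, against 6.68 and 6.95 on the WT arrays, and Ta.23214.1.S1_at (0.315). The distance of Ta.23214.1.S1_at is uncertain, since its signals of 3.66 and 3.97 on the UD-2 arrays were not above background, and Ta.30903.1.A1_at was above background on only 1 of the 2 UD-2 arrays. Ta.4334.3.A1_a_at lay only a little above the UD-2 background levels of 3.93 and 3.99. For Ta.8359.1.S1_s_at the nearest was Ta.28750.1.S1_at (0.0673), described as the photosystem II subunit PSBR, with 12.13 and 12.14 on the UD-2 arrays, against 13.43 and 13.61 on the WT arrays, followed by TaAffx.103666.1.S1_at (0.0763). The pattern of Ta.8359.1.S1_s_at was a common one, with 27 probe sets outside the 4 clusters within a distance of 0.25, against 1 for each other chosen probe set.

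Few wheat genes of the same families could be named through the annotation used here. The thaumatin-family gene PR5, represented by Ta.24501.1.S1_at, had log2 signals of 11.93 and 11.37 on the UD-2 arrays, against 12.54 and 12.23 on the WT arrays. Both UD-2 arrays were thus the lower ones, with a log2 difference of −0.74 and a 95% interval from −1.27 to −0.20, but PR5 did not pass the test (adjusted p = 0.144 from limma). None of the probe sets named through it was a metallothionein. PCS1, which encodes phytochelatin synthase and so makes another class of metal-binding peptide, gave 6.48 and 6.25 on the UD-2 arrays, against 6.59 and 6.63 on the WT arrays (Ta.232.1.S1_at, log2 difference −0.25, adjusted p = 0.274 from limma).

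The annotation gave 10 probe sets for the dehydrins COR410 and Rab15 and for the late embryogenesis abundant proteins LEA1 and Em. In limma 0 passed the test in either direction, beside 0.281% of all probe sets lower and 0.43% higher. At an unadjusted p under 0.05 there were 0, beside 8.56% lower and 8.53% higher. Since 0 of 10 lies near the adjusted shares, nothing is read from it for these probe sets. Their median log2 difference was 0.06, with a range from −0.19 to 0.60. Only 3 were above background on all 4 arrays and 6 on none, so that a change in most of them was not detectable. The value of 0.60 belonged to LEA1 (Ta.23797.1.S1_x_at), with 5.78 and 4.55 on the UD-2 arrays, against 5.17 and 3.97 on the WT arrays, where the lines overlapped.

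**Figure D3:**
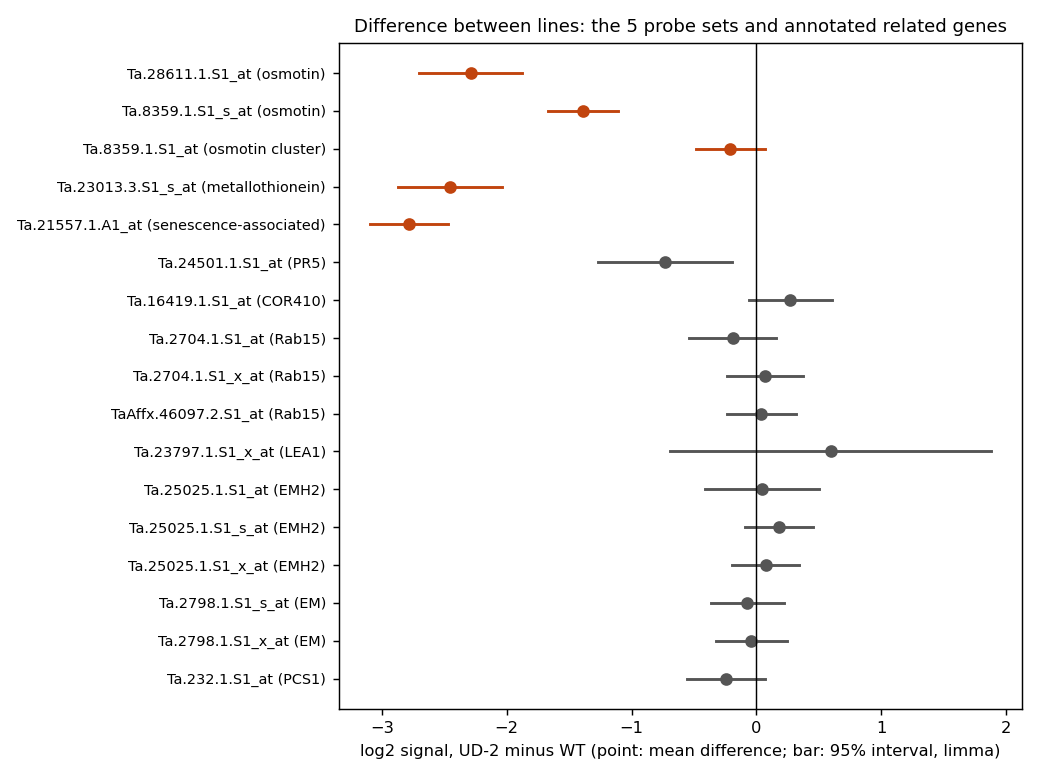
Log2 difference between the lines (UD-2 minus WT) with its 95% interval from limma for the 5 probe sets (red) and 12 probe sets of annotated related genes (grey). The intervals of the 4 chosen probe sets end at or below −1.11, while 11 of the 12 others and Ta.8359.1.S1_at have intervals that reach 0; the exception is PR5, from −1.27 to −0.20.

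Probe sets with related descriptions, also selected on these arrays, went both ways, with 4 higher and 2 lower in UD-2. The transcript described as abscisic stress-ripening, a family linked to abscisic acid and drying, had 5.99 and 5.95 on the UD-2 arrays, against 7.41 and 7.35 on the WT arrays. Among 3 probe sets matched to ERD9, an Arabidopsis glutathione transferase first described as early responsive to dehydration, 1 had 6.95 and 7.34 on the UD-2 arrays, against 11.24 and 11.51 on the WT arrays, a log2 difference of −4.23. The other 2, of a single cluster, lay on the opposite side. One of them had 6.90 and 7.00 on the UD-2 arrays, against 3.33 and 3.26 on the WT arrays, where it was not above background, so that its signal was higher in UD-2 by at least 6.91-fold. Its companion, also not above background in WT, was higher by at least 4.91-fold.

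The remaining 2 increases were in receptor kinases. A transcript described as a senescence-induced receptor-like kinase measured 6.54 and 6.44 on the UD-2 arrays, against 3.45 and 3.39 on the WT arrays, where it was not above background, and was thus higher in UD-2 by at least 5.03-fold. A transcript matched to PR5K, an Arabidopsis receptor kinase with an extracellular domain related to PR-5 proteins, gave 12.60 and 12.61 on the UD-2 arrays, against 10.62 and 10.68 on the WT arrays. Its log2 difference was 1.96, opposite in direction to both osmotin clusters. Bounds on the fold take the background level as the WT value.

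The tissue and the quality of the RNA were checked on annotated and control probe sets. Over all probe sets 0.281% were past the threshold and lower and 0.43% higher, so that a count of 0 in these short lists says little. At an unadjusted p under 0.05 the shares were 8.56% lower and 8.53% higher. Of 31 probe sets for Rubisco and photosystem II proteins, 0 passed the test in limma (1 at an unadjusted p under 0.05), but 14 were above background on no array and 15 on all arrays, and the brightest, at 14.56 in UD-2 and 14.57 in WT, lay near the top of the signal range. Most of the 31 were for the large subunit of Rubisco, so that photosystem II was hardly covered. Its probe sets on the list were all lower in UD-2, with log2 differences of −0.28 for PsbO and of −0.13 and −0.47 for PsbP. PSBR (Ta.28750.1.S1_at), a photosystem II subunit that the annotation used for this list does not name, was lower in UD-2 past the threshold, with a log2 difference of −1.39 (adjusted p = 0.0175 from limma). Of 18 probe sets for grain storage proteins and inhibitors, 13 were above background on no array and 4 on all arrays, with top signals of 10.79 in UD-2 and 10.36 in WT, and 0 passed (1 unadjusted), and 0 of 2 profilin probe sets passed (1 unadjusted). The 3′ minus 5′ signal of 4 control transcripts differed between the lines by −0.17 to 0.20, and 27 of 27 hybridization control probe sets had a higher mean in UD-2, by a median of 0.27. The background level was lower in UD-2 (3.93 and 3.99, against 4.17 and 4.15 in WT). So was the median signal of the arrays (4.54 and 4.53, against 4.60 and 4.58 in WT). The part of these differences in the results was not tested.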

How the data were processed

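The authors corrected the background of 4 wheat GeneChip arrays, normalized them together and summarised probes by robust multiarray average (RMA); the deposited values are log2 signals, 1 per probe set and array. R 3.1.1 and limma are named in the submitters' processing notes. Probe-level intensities were not analysed here. Of 61290 probe sets, 175 controls were left out and 61115 tested. Moderated tests of UD-2 against WT, without covariates, used limma 3.58.1 (lmFit, eBayes) under R 4.3.3 (5.67 degrees of freedom in all). P-values were adjusted over all probe sets after Storey and Tibshirani, which the study's methods name, with lambda from 0.05 to 0.95 in steps of 0.05 (share of unchanged probe sets 0.708) and a threshold of 0.05. Whether the study's own lists used this adjustment is not settled here; the Benjamini-Hochberg values of the 4 chosen probe sets were 0.00271 to 0.0209. The fit was tested on simulated data. Tables and exact permutation tests used Python 3.11.15, pandas 2.3.3 and scipy 1.17.1, and figures matplotlib 3.10.9. With 2 arrays per line, the number of arrays limits the precision. Limma p-values and intervals rest on the spread between pools, partly that over all probe sets (2 residual, 3.67 prior degrees of freedom).

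Named probe sets are all those of the 4 clusters and the 2 outside them nearest in pattern to each chosen one. Also named are those described or annotated as osmotin, thaumatin, pathogenesis-related, metallothionein, senescence, dehydrin, late embryogenesis abundant, cold-responsive or abscisic. PCS1 was added later. The members and lists were chosen with earlier results of these data known. Descriptions of unannotated probe sets come from the study's rice and Arabidopsis matches, and the platform annotation gives 1 gene for 1273 probe sets. As alternatives, the adjustment was changed to Benjamini-Hochberg or to lambda fixed at 0.5, eBayes was run robustly or with a trend in intensity, dim probe sets were dropped, controls kept, arrays quantile normalized or centred on their medians, the replicate number added as a block, and single arrays omitted.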

Additional observations from a re-analysis of the deposited data

Results flagged for a closer look

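A reporter control probe set outside the comparison, RPTR-Ta-U57609-2_s_at, had log2 signals of 11.22 and 10.70 on the UD-2 arrays, against 4.62 and 5.47 on the WT arrays, a log2 difference of 5.91. The sources used here do not give its target sequence, and whether it matches part of the construct in UD-2 was not tested.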

How the results depend on the processing

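The log2 differences of the 5 probe sets kept their sign under all 13 alternatives, and the number past the threshold stayed at 4 lower and 0 higher under 8 of them. Replicate numbers are shared by the lines, and the labels do not say whether they pair the arrays. Over all probe sets the deviations of same-numbered arrays from their line means correlated at −0.091. With 2 arrays per line this cannot exclude a pairing that affects some probe sets. With the replicate block, 1 of the 5 passed, Ta.21557.1.A1_at (adjusted p = 0.0474 from limma), while Ta.23013.3.S1_s_at at −2.45 (adjusted p = 0.155 from limma), Ta.28611.1.S1_at at −2.29 and Ta.8359.1.S1_s_at at −1.39 (both adjusted p = 0.172 from limma) did not; over all probe sets 16 were higher and 11 lower. Without single arrays, limma called 0 of the 5 and 0 of all probe sets in either direction (263 higher and 172 lower with all 4 arrays), with 4 of the 5 and 2512 to 4597 higher and 2602 to 4182 lower at an unadjusted p under 0.05. Log2 differences were then −2.88 to −2.69 for Ta.21557.1.A1_at, −2.64 to −2.26 for Ta.23013.3.S1_s_at, −2.46 to −2.12 for Ta.28611.1.S1_at and −1.45 to −1.33 for Ta.8359.1.S1_s_at. Counts of all probe sets moved to 142 higher and 98 lower with Benjamini-Hochberg adjustment, 512 and 325 with robust eBayes, 779 and 491 without dim probe sets, 400 and 285 with quantile normalization, and 797 and 319 with median centring, which moved the share of decreases to 28.6%, against 39.5% with the arrays as deposited. The cause of these shifts was not tested. Signal near background limits Ta.28611.1.S1_at in UD-2, Ta.8359.1.S1_at and most dehydration-related probe sets.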
